A study of Mus musculus with 6 samples.

Results

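The genes described here are the sestrins Sesn1 and Sesn2 and a set of p53 target and stress genes, Ddit4, Cdkn1a, Ccng1, Gadd45a, Mdm2 and Trp53inp1, together with Trp53 itself. They were chosen because Sesn1 had the largest fall at 5 h of LPS on a scale with a floor, below which genes cannot be ranked, with its paralogue and other p53 targets set beside it. Of the 9 genes, 8 were annotated to 16 of the 22690 probe sets of the array, with up to 3 probe sets for a gene, and Trp53 was not analysed here. RNA came from bone marrow-derived macrophages of IκBβ knockout and wild-type mice, both on the C57BL/6J strain, grown for 7 days in 30% L929-conditioned medium. Cells of each genotype were left unstimulated (0 h) or given 1 µg/ml LPS, the bacterial lipopolysaccharide sensed by Toll-like receptor 4, for 1 h or 5 h. RNA from each of these 6 conditions was hybridised to 1 Affymetrix Mouse Genome 430A 2.0 array. Neither the knockout allele nor the age of the mice is given in the sources used here, nor is the number of animals behind each genotype.

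p53 is a transcription factor that is stabilised by DNA damage and other stresses and turns on genes that halt the cell cycle, repair DNA or kill the cell. Its target Mdm2 encodes the ubiquitin ligase that degrades p53, which closes a feedback loop. Sestrins link p53, FoxO and nutrient stress to growth: they bind the GATOR complex at the lysosome and thereby restrain the growth kinase mTORC1, and Ddit4 (REDD1) restrains the same kinase through the TSC complex. In macrophages several of these genes are also driven by inflammatory and metabolic signals that do not pass through p53.

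Nfkbib, which encodes IκBβ, gave signals of 30.5, 136 and 56.1 at 0 h, 1 h and 5 h on the knockout arrays, against 477, 3330 and 5007 on the wild-type arrays. Xist, the RNA of the inactive X chromosome, read 5634, 4189 and 2149 on the knockout arrays and 52.1, 80.4 and 62.2 on the wild-type arrays. Sex and genotype therefore cannot be told apart in any difference between the genotypes given here. Array medians lay between 65.2 and 117 and were lowest at 5 h, at 65.2 in knockout and 70.8 in wild type. All 10 listed macrophage markers were measured, and 4 of them, Adgre1, Csf1r, Lyz2 and Cd68, read 9675 or more on all 6 arrays. At 5 h limma called 4 of the 10 higher and 2 lower, with 4 uncalled, and their summed signal was 81240, 91550 and 101400 in knockout and 88430, 90610 and 107000 in wild type. Values are MAS5 signals on a linear scale, and before log2 was taken a floor of 18.2 was set, at the 25th percentile of the whole table. Changes and their standard errors (SE) come from a limma fit over 13135 probe sets with genotype and time as additive terms, so each LPS time rests on 2 arrays, 1 per genotype. Calls were made below an adjusted p of 0.05 (Benjamini-Hochberg). The SE measures how far the arrays depart from this additive fit, and no group has a second array. It therefore includes any LPS response that differs between the genotypes, which cannot be told apart from spread between arrays. The 1 h and 5 h changes share the 0 h arrays.

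The genes split into those that were lower and those that were higher under LPS. Sesn1, Sesn2, Ccng1 and Trp53inp1 were lower than at 0 h at both LPS times in both genotypes, while Cdkn1a, Mdm2 and Ddit4 were higher, and Gadd45a was higher at 1 h and lower at 5 h. At 1 h, limma called 5 of the 16 probe sets higher (Cdkn1a, Mdm2 and Ddit4), where 5.31% of all probe sets were called higher, and 2 lower (both Sesn1), where 4.59% were called lower. The other 9 did not pass, although 12 of the 16 had an unadjusted p under 0.05, as had 30.3% of all probe sets. Without 1 of the 6 arrays the counts were 2 to 4 higher and 0 to 4 lower. All 16 moved the same way in both genotypes at 1 h, as did 78.1% of all probe sets, and all 16 did so at 5 h, as did 90.4% of all. The median of the 16 changes at 1 h was −0.36 on the log2 scale, beside −0.17 over all probe sets. The plot of signals by array shows these courses for each probe set.

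**Figure D1:**
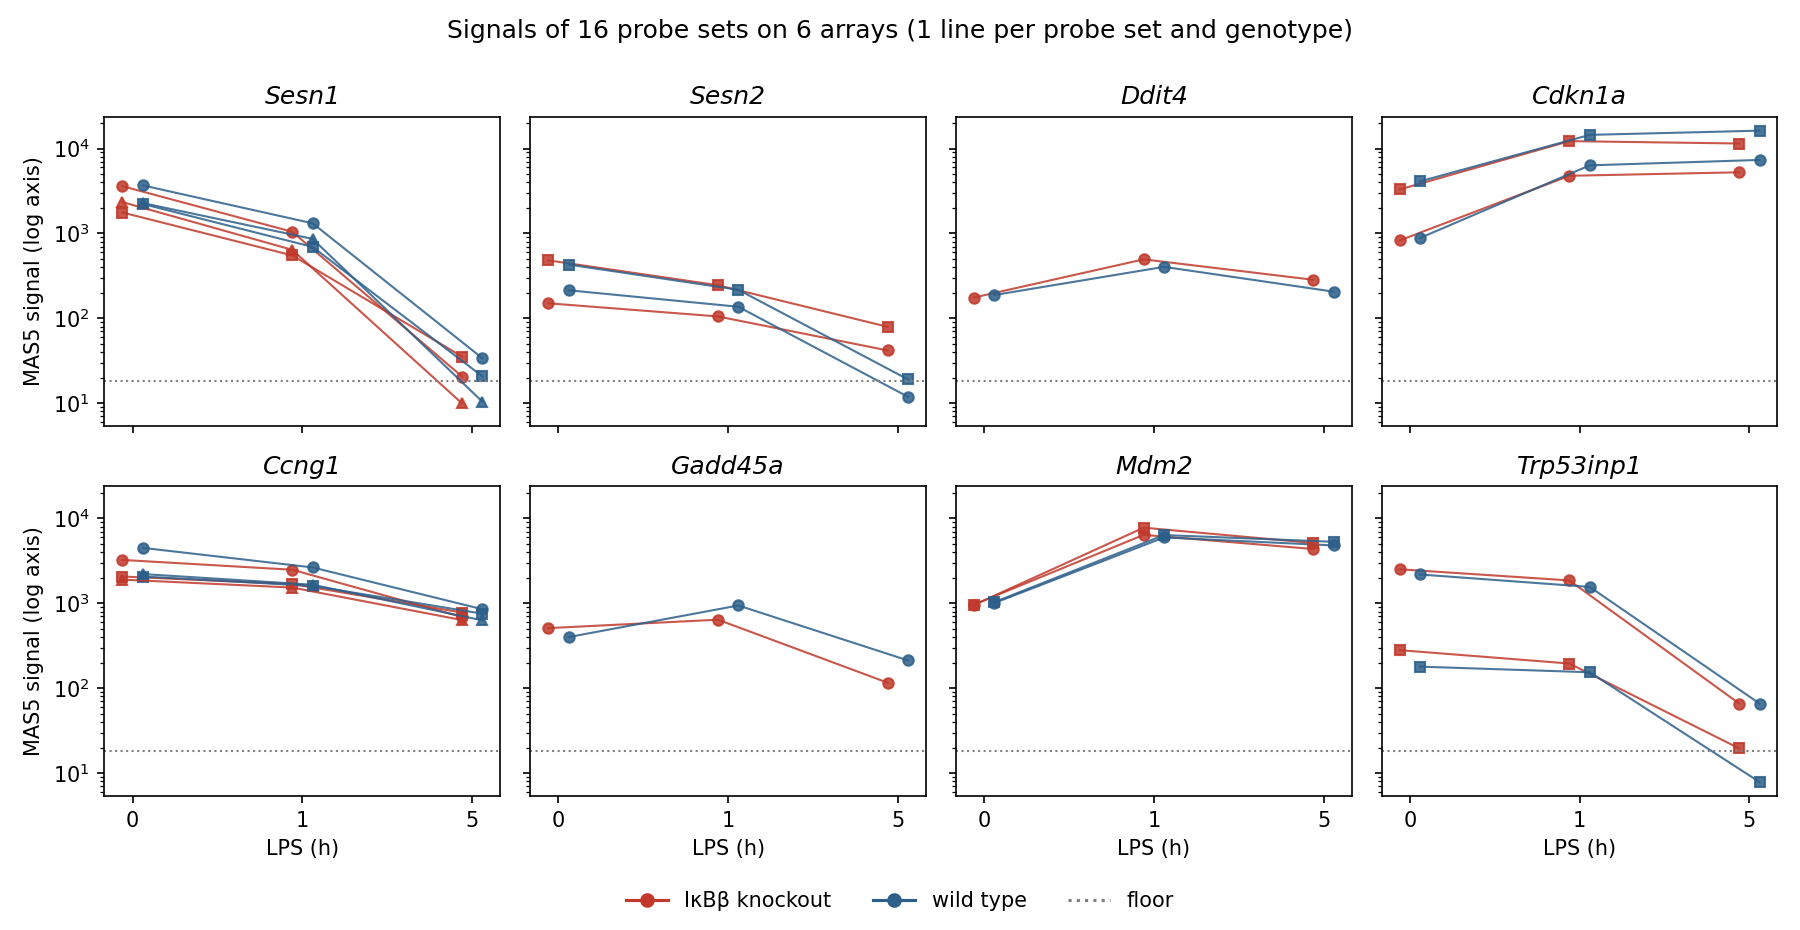
MAS5 signal (log axis) against hours of LPS for the 8 genes with a probe set, 1 line per probe set and genotype (red, IκBβ knockout; blue, wild type; marker shapes tell probe sets of a gene apart; each point is 1 array). Sesn1, wild-type Sesn2 and the dimmer Trp53inp1 probe set lie near or under the floor of 18.2 (dotted) at 5 h. Cdkn1a and Mdm2 are above their 0 h signals at 1 h and 5 h.

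Sesn1 (chromosome 10, 41810574 to 41908436, GRCm38.p6) had already lost most of its signal by 1 h and was close to the floor at 5 h. Its brightest probe set, 1433711_s_at, gave 3605, 1046 and 20.6 at 0 h, 1 h and 5 h in knockout, and 3681, 1317 and 33.8 in wild type. The 1 h arrays lay between the 0 h and the 5 h arrays. Sesn1 was chosen for its 5 h fall, so the order of the 0 h and 5 h arrays follows from that choice. At 1 h, 29% of the 0 h signal was left in knockout and 35.8% in wild type. The fitted change at 1 h was −1.63 (SE 0.197, limma adjusted p = 0.0207). All 1 h changes of Sesn1 share the 0 h arrays with the 5 h fall that chose it. Their p-values are therefore not independent of that choice. Sesn1 is the sestrin first found as a p53-induced gene in human cells, as PA26.

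The other Sesn1 probe sets ran the same course. Probe set 1454699_at read 2340, 641 and 9.95 in knockout and 2279, 863 and 10.4 in wild type, and its change at 1 h was −1.63 (SE 0.164, limma adjusted p = 0.0137). Probe set 1438931_s_at read 1765, 551 and 35.4 in knockout and 2224, 694 and 20.7 in wild type. Its 1 h change of −1.68 (SE 0.328), the same in each genotype, was as large but did not pass (limma adjusted p = 0.0544). It passed with a pseudocount in place of the floor (limma adjusted p = 0.0246), with a filter at a signal of 100 (0.0482) and with no genotype term (0.0257). It did not pass with the floor at the 10th percentile (0.067), with dim probe sets kept (0.183), after quantile normalization (0.0708) or after median centring (0.0532). Both called probe sets passed on all 6 arrays but not after leaving out any 1 of the 0 h or 1 h arrays, where the adjusted p was 0.0509 to 0.142 for 1433711_s_at and 0.0622 to 0.0862 for 1454699_at. Neither passed when dim probe sets were kept in the fit (limma adjusted p = 0.1 and 0.0832).

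The 5 h values chose Sesn1, so they are a description without a test. The mean change at 5 h was −7.11 for 1433711_s_at and −6.19 for 1438931_s_at on the log2 scale, and at least 6.98 downward for 1454699_at, whose 5 h signals were under the floor in both genotypes. In 1433711_s_at 0.572% of the 0 h signal was left in knockout and 0.919% in wild type. On the floored scale, the next falls among 7510 genes were those of Cxcr4, a chemokine receptor gene, at −6.16, Nfic, a nuclear factor I gene, at −5.96 as a bound, and Slc40a1, the iron exporter gene, at −5.84. Nfic read 1222, 415 and 7.81 in knockout and 1058, 449 and 6.15 in wild type, so its 5 h signals were under the floor and its place against Sesn1 and Cxcr4 is not known. Median centring of the arrays gave −6.35 for 1433711_s_at and quantile normalization −6.91. The probe sets disagreed on the order of the genotypes at 5 h: knockout minus wild type was −0.71 in 1433711_s_at and 0.77 in 1438931_s_at, from signals near the floor.

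For Sesn1 2 starts were in the RefSeq table, and both windows of 250 bases before to 50 bases after the start are shown. They are shown because this gene had the largest 5 h fall on the floored scale. Capitals mark a FoxO site, searched as TGTTTAC on both strands. It lay at bases 23 to 29 of the transcript at the upstream start, counted from 1 at the start, and the downstream window held none. Of 32817 promoter windows of the same length, 3.65% held this motif. The sequences are from RefSeq (GRCm38.p6), 5′ to 3′ on the plus strand.
Sesn1 upstream start, chr10:41810324-41810623: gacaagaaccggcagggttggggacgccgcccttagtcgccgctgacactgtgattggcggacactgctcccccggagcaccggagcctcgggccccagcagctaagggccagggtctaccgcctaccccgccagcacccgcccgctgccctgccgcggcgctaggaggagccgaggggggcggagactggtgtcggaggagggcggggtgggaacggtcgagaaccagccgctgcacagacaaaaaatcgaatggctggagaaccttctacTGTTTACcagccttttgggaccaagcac
Sesn1 downstream start, chr10:41887189-41887488: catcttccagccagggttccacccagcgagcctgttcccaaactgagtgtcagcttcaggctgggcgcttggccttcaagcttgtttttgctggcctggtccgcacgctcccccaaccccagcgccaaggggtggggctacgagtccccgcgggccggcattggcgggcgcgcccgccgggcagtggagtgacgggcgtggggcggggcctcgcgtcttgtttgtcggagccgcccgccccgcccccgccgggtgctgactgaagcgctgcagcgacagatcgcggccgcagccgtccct

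Sesn2 (chromosome 4, 132492804 to 132510456), a leucine-binding sestrin and a paralogue of Sesn1, ran lower with time but less steeply. Its brighter probe set, 1451599_at, gave 482, 245 and 79.3 at 0 h, 1 h and 5 h in knockout, and 430, 217 and 19.03 in wild type. About the same share of the 0 h signal was left at 1 h in both genotypes, 50.9% in knockout and 50.4% in wild type. The 1 h change of −0.98 (SE 0.54) did not pass (limma adjusted p = 0.287). Without the knockout or the wild-type 5 h array the change was again −0.98. It then comes from the same 0 h and 1 h arrays, so neither omission is a separate check. In the dimmer probe set, 1425139_at, the 1 h change of −0.58 (SE 0.4731) did not pass either (limma adjusted p = 0.4435).

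At 5 h the genotypes lay apart for Sesn2. The level in 1451599_at was 4.17-fold higher in knockout than in wild type at 5 h, against 1.12-fold at 0 h and 1.13-fold at 1 h. Probe set 1425139_at read 150, 105 and 41.8 in knockout and 214, 137 and 11.9 in wild type, so that knockout was lower at 0 h and 1 h and at least 2.29-fold higher at 5 h. These were the 2 probe sets of the 16 that lay at least 2-fold apart at 5 h, where 4.61% of all probe sets did. Each difference compares 1 knockout array with 1 wild-type array whose signal was near or under the floor, and has no test. The difference shared by the 3 times was 0.8 (SE 0.441, limma adjusted p = 0.622) for 1451599_at and 0.1 (SE 0.386, limma adjusted p = 0.943) for 1425139_at. Sesn3, the remaining sestrin, read 276, 177 and 61.2 in knockout and 252, 190 and 33.4 in wild type. Its change was −0.52 at 1 h (limma adjusted p = 0.261) and it fell by 2.55 at 5 h (limma adjusted p = 0.00195), where 49.7% of all probe sets were called lower. All 3 sestrin genes were lowest at 5 h in both genotypes, but the 5 h values chose Sesn1 and nothing is read from this count.

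Ddit4 (chromosome 10, 59949675 to 59951770), the other upstream inhibitor of mTORC1, went up at 1 h. Its probe set read 176, 495 and 284 at 0 h, 1 h and 5 h in knockout, and 188, 404 and 206 in wild type. Both 1 h arrays were above all 4 others, and both 0 h arrays were lowest. The 1 h change was 1.3 (SE 0.175, limma adjusted p = 0.0261), a 2.82-fold higher level in knockout and a 2.15-fold higher level in wild type. This call did not hold after leaving out any 1 of the 6 arrays (limma adjusted p = 0.0536 to 0.172) or with dim probe sets kept (0.106). At 5 h Ddit4 was down to 0.69 above 0 h in knockout and 0.13 in wild type. That mean of 0.41 became 1.18 after median centring and 1.07 after quantile normalization. Ddit4l, its relative, was not bright enough on any array to be tested.

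Cdkn1a (chromosome 17, 29090979 to 29100722), which encodes the cyclin-dependent kinase inhibitor p21, rose within 1 h and was above 0 h at 5 h. Probe set 1424638_at gave 3296, 12240 and 11480 at 0 h, 1 h and 5 h in knockout, and 4108, 14510 and 16260 in wild type. The 1 h and 5 h arrays lay far above the 0 h arrays, with no overlap. Its 1 h change was 1.86 (SE 0.123, limma adjusted p = 0.00585). Probe set 1421679_a_at read 826, 4780 and 5255 in knockout and 884, 6347 and 7347 in wild type, with a 1 h change of 2.69 (SE 0.145, limma adjusted p = 0.00393). Without the knockout or the wild-type 1 h array the adjusted p was 0.0723 and 0.0652 for 1424638_at, and 0.0535 and 0.0581 for 1421679_a_at. With dim probe sets kept it was 0.0517 and 0.0541 for these probe sets in that order. Between 1 h and 5 h the level changed by −0.09 in knockout and 0.16 in wild type in 1424638_at, and by 0.14 in knockout and 0.21 in wild type in 1421679_a_at. The mean of that change depended on the scaling: it was 0.04 in 1424638_at (0.62 after median centring, −0.11 after quantile normalization) and 0.17 in 1421679_a_at (0.76 and −0.05).

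Knockout was below wild type at all 3 times in both Cdkn1a probe sets, as in 19.3% of all probe sets, with ratios of knockout over wild type of 0.802, 0.844 and 0.706 at 0 h, 1 h and 5 h in 1424638_at. The shared difference was −0.36 (SE 0.1) in 1424638_at and −0.33 (SE 0.118) in 1421679_a_at. Neither passed (limma adjusted p = 0.556 and 0.588), with unadjusted p = 0.022 and 0.0463, and 8.43% of all probe sets had an unadjusted p under 0.05. Cdkn1a and Mdm2 were the genes whose courses were most alike among the 8, while Cdkn1b, which encodes the related inhibitor p27, was lower at 1 h and 5 h than at 0 h. It read 758, 198 and 284 in knockout and 497, 272 and 239 in wild type, with a change of −1.41 at 1 h (limma adjusted p = 0.0587) and a fall of 1.24 at 5 h (limma adjusted p = 0.018).

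The window at the upstream start of Cdkn1a is shown because it holds a p53 response element, the DNA sequence to which p53 binds. The element was searched as 2 abutting half-sites (RRRCWWGYYY) with at most 1 mismatch outside their cores, where R is A or G, W is A or T and Y is C or T. In capitals, it spanned bases −51 to −32 before that start. Such an element was found in 18 of 32817 windows (0.0548%), and in 1 of the 9 windows of the genes described here. The match is a description of the letters, and the window at the other of the 2 starts listed for Cdkn1a held none.
Cdkn1a upstream start, chr17:29090729-29091028, plus strand: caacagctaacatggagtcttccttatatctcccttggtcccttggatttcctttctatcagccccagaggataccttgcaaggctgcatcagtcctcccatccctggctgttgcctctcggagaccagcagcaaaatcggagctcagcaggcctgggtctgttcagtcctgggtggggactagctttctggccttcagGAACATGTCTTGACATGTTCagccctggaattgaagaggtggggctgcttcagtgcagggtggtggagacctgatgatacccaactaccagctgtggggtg

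Ccng1 (chromosome 11, 40748552 to 40755309) encodes cyclin G1, a p53 target that brings a phosphatase to Mdm2. Its brightest probe set, 1420827_a_at, read 3247, 2488 and 690 in knockout and 4503, 2649 and 852 in wild type. Probe set 1450016_at read 2069, 1689 and 779 in knockout and 2070, 1603 and 755 in wild type, and 1450017_at 1903, 1535 and 635 in knockout and 2213, 1656 and 630 in wild type. In each of these probe sets the 0 h arrays were highest and the 5 h arrays lowest. The 1 h changes were −0.57 (SE 0.14), −0.33 (SE 0.106) and −0.36 (SE 0.119) in that order, and none passed (limma adjusted p = 0.0826, 0.133 and 0.136). After median centring these changes were −0.4, −0.15 and −0.19. The 5 h changes were −2.32, −1.43 and −1.7, and −1.56, −0.67 and −0.94 after median centring. Ccng2, which encodes cyclin G2 and is a FoxO target, read 782, 1087 and 1265 in knockout and 715, 2172 and 1656 in wild type. Its change of 1.04 at 1 h did not pass (limma adjusted p = 0.107), and it rose by 0.95 at 5 h (limma adjusted p = 0.042).

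Gadd45a (chromosome 6, 67035096 to 67037407), whose protein acts in growth arrest and in stress kinase signalling, was highest at 1 h and lowest at 5 h. Its probe set read 510, 642 and 116 in knockout and 400, 943 and 212 in wild type. Against 0 h the 1 h level was 1.26-fold in knockout and 2.36-fold in wild type, and the shared change of 0.78 (SE 0.326) did not pass (limma adjusted p = 0.197). At 5 h 22.7% of the 0 h signal was left in knockout and 53% in wild type. Knockout was 1.28-fold of wild type at 0 h, 0.68-fold at 1 h and 0.546-fold at 5 h, and the shared difference was −0.36 (SE 0.266, limma adjusted p = 0.683). Its relatives were highest at 5 h. Gadd45b read 435, 6235 and 7262 in knockout and 386, 5996 and 7581 in wild type, and rose by 3.9 at 1 h (limma adjusted p = 0.00185) and 4.18 at 5 h (limma adjusted p = 0.000403). Gadd45g read 154, 302 and 793 in knockout and 125, 173 and 347 in wild type, with 0.72 at 1 h (limma adjusted p = 0.142) and a rise of 1.92 at 5 h (limma adjusted p = 0.00308).

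The Gadd45a window is shown for its pair of octamer sites (capitals, searched as ATTTGCAT on both strands), the binding sequence of POU domain factors. They lay at bases −97 to −90 and −70 to −63, and 1.74% of all windows held at least 1.
Gadd45a start, chr6:67037358-67037657, minus strand: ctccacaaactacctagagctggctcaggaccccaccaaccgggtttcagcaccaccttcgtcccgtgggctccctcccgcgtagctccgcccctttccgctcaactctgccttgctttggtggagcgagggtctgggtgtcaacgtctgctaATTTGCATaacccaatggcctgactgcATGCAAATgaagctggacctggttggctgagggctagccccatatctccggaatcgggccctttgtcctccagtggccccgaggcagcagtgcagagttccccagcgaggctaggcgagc

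Mdm2 (chromosome 10, 117688875 to 117710758) had the largest 1 h rise of the genes described here. Probe set 1427718_a_at read 954, 7794 and 5140 at 0 h, 1 h and 5 h in knockout, and 1032, 6376 and 5311 in wild type. The 1 h level was 8.17-fold that at 0 h in knockout and 6.18-fold in wild type, and the fitted change was 2.83 (SE 0.148, limma adjusted p = 0.00384). Probe set 1423605_a_at read 966, 6413 and 4363 in knockout and 1008, 5976 and 4812 in wild type, with a change of 2.65 (SE 0.121, limma adjusted p = 0.00313). At the deposited scale all 1 h arrays lay above all 5 h arrays, and these above the 0 h arrays. The mean of 5 h minus 1 h was −0.43 in both probe sets, −0.64 after quantile normalization and 0.15 after median centring, so the order of 1 h and 5 h turned with the scaling. Both probe sets passed without any 1 of the 6 arrays, and with dim probe sets kept only 1423605_a_at did (1427718_a_at, limma adjusted p = 0.0541). Knockout minus wild type was 0.04 (SE 0.121) and −0.03 (SE 0.0986) over the 3 times (limma adjusted p = 0.923 and 0.926). Mdm4, whose protein also restrains p53, read 192, 166 and 193 in knockout and 175, 198 and 198 in wild type (1 h change −0.01, limma adjusted p = 0.952).

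The annotated Mdm2 start is shown as the counterpart to Sesn1, because its window also holds a FoxO site, here on the other strand (capitals, bases −153 to −147). The intron promoter through which p53 is known to act on Mdm2 was not analysed here.
Mdm2 start, chr10:117710709-117711008, minus strand: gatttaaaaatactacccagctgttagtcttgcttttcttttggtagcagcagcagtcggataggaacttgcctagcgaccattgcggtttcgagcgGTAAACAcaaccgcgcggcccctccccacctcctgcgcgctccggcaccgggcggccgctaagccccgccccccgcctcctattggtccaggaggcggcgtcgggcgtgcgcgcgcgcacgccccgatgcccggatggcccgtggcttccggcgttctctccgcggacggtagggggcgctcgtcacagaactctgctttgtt

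Over the 9 windows of 7 genes, the FoxO site was in 2, the octamer in 1 and the p53 element in 1. An ATF4 composite site (TGATGNAA, in 3.97% of all windows) was in 0 of the 9. A κB site (in 1.63% of all windows) was also in 0 of the 9. It was searched as a fixed pattern, a run of G, a gap of any bases, then runs of T and C. κB sites of other forms were not searched, so this 0 does not show that the windows lack them. The CCAAT box (CCAAT) was in 7 of 9 windows and in 37.4% of all windows, and the GC box (GGGGCGG) in 6 of 9 and in 23.2% of all. The GC content of the 9 windows was 54.7% to 71%, beside a median of 52.7% over all windows.

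Trp53inp1 (chromosome 4, 11156441 to 11174379), a p53 target whose protein promotes cell death and autophagy, changed little at 1 h and was nearly gone at 5 h. Probe set 1416926_at read 2520, 1862 and 65.99 at 0 h, 1 h and 5 h in knockout, and 2188, 1561 and 66 in wild type. At 5 h 2.62% of the 0 h signal was left in knockout and 3.02% in wild type, so that the genotypes were level there. Probe set 1416927_at read 281, 195 and 19.5 in knockout and 179, 154 and 7.84 in wild type, where the last signal was under the floor. The 1 h changes were −0.46 (SE 0.124, limma adjusted p = 0.0965) and −0.37 (SE 0.17, limma adjusted p = 0.225). The mean 5 h changes were −5.15 and −3.57, the second a bound. Most of the loss came after 1 h: between 1 h and 5 h the level of 1416926_at changed by −4.82 in knockout and −4.56 in wild type. Over the same interval Sesn1 changed by −5.67 in knockout and −5.28 in wild type in 1433711_s_at, and 60.7% of all probe sets were called between these times. Trp53inp2, its relative, read 1264, 1546 and 227 in knockout and 1380, 1185 and 310 in wild type, and fell by 2.32 at 5 h (limma adjusted p = 0.00165).

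**Figure D2:**
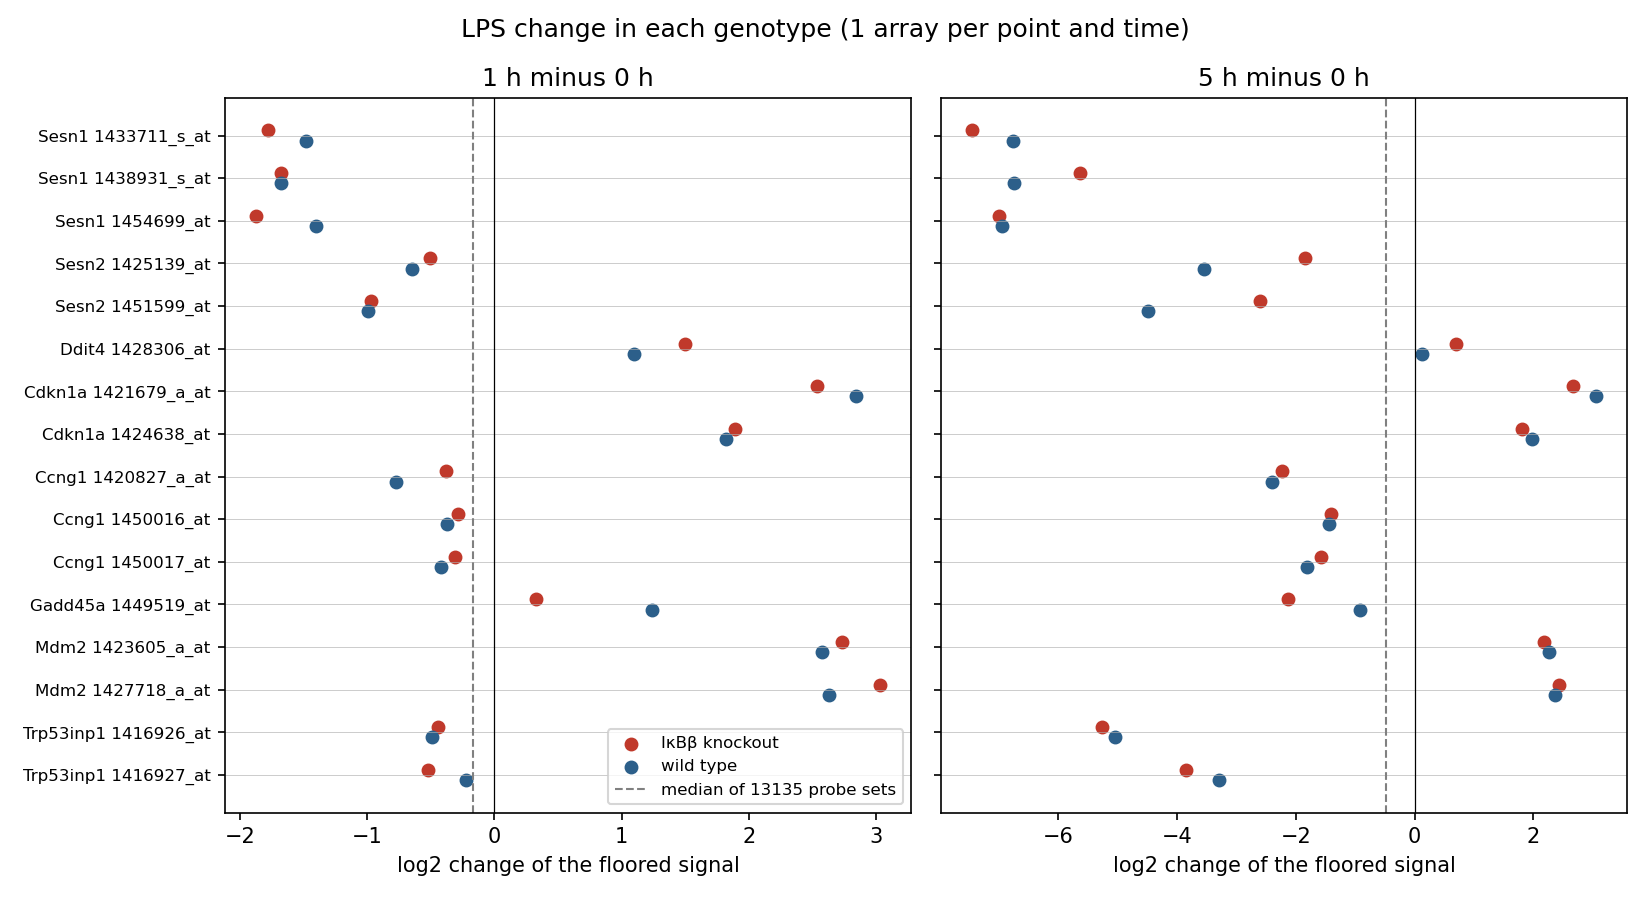
Log2 change of the floored signal at 1 h (left) and 5 h (right) against 0 h for the 16 probe sets, with IκBβ knockout in red and wild type in blue (1 array per genotype and time, so no error bars). The dashed lines are the medians of 13135 probe sets, −0.17 at 1 h and −0.48 at 5 h, and the axes of the 2 panels differ.

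As a group at 5 h, 10 of the 16 probe sets were at least 2-fold lower than at 0 h in both genotypes (27.9% of all probe sets) and 4 at least 2-fold higher (11.4% of all). These counts describe genes chosen on the 5 h contrast, and nothing is read from them. The median of all probe sets at 5 h was −0.48 at the deposited scale, −0.12 after quantile normalization and 0.28 after median centring, and no member's 5 h change turned its sign under either. B cell markers also ran low at 5 h: 3 of 7 were measured and all 3 fell at 5 h, and the signal summed over the 7 was 3935, 2873 and 460 in knockout and 3771, 2646 and 472 in wild type. Most of that sum was Ighm, while Pax5 was under the floor on all 6 arrays and Cd79a and Ms4a1 read at most 45.3. Of 11 neutrophil markers with a probe set 4 were measured, 2 of them called higher and 1 lower at 5 h, and the signal summed over the 11 was 4438, 4029 and 5735 in knockout and 3590, 3289 and 4434 in wild type. Of 8 fibroblast markers 3 were measured and 2, Dcn and Pdgfrb, were called higher at 5 h (list median 1.68, and 2.29 after median centring). The signal summed over the 8 was 545.5, 389.8 and 560.1 in knockout and 578.7, 620.6 and 627.7 in wild type. The part of these markers in the falls was not tested, and in bulk RNA fewer cells of a type and less RNA per cell cannot be told apart.

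Distances between whole courses placed the members in order. Each brightest probe set was centred on its mean over the 6 arrays, and the Euclidean distance was taken on the log2 scale, which weighs the size as well as the shape of a course. The distances include the 5 h values by which Sesn1 was chosen, so that a large distance between Sesn1 and a gene that went up follows from the choice. Cdkn1a and Mdm2 lay 1.1 apart, Ccng1 and Gadd45a 1.57, Cdkn1a and Ddit4 1.69, and Sesn1 and Trp53inp1 2.08. The paralogues Sesn1 and Sesn2 lay 4.28 apart, and Sesn2 was nearer to Ccng1 (2.15) and Trp53inp1 (2.65).

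**Figure D3:**
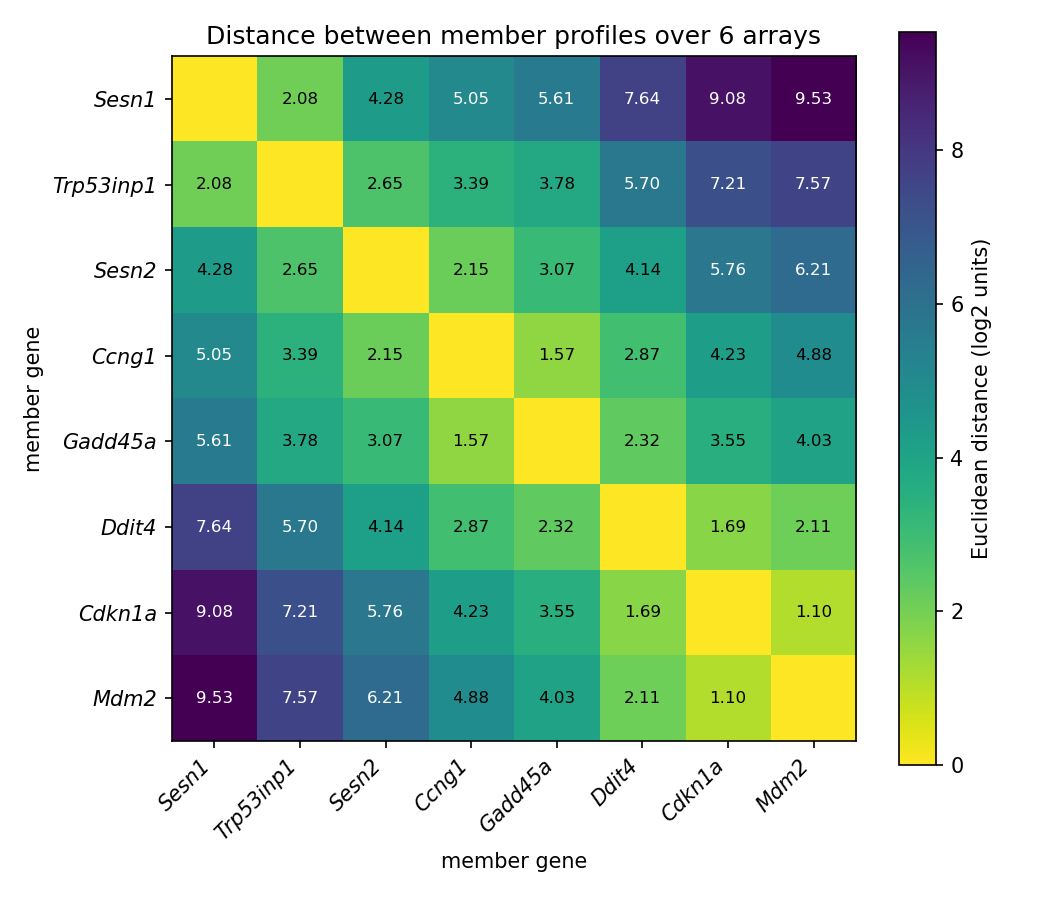
Euclidean distance (log2 units) between the mean-centred courses of the 8 genes over 6 arrays, each gene by its brightest probe set. Small values join Cdkn1a, Mdm2 and Ddit4 at one end and Sesn1 and Trp53inp1 at the other, with Sesn2, Ccng1 and Gadd45a between.

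Among all 7510 genes, the courses nearest to Sesn1 were those of Slc40a1 (1.31), Nfic (1.33) and Pdxk (1.48, pyridoxal kinase), against a median distance of 6.92. Nearest to Trp53inp1 were Mxd4 (0.33, a MAX-binding repressor), Inpp5d (0.37, the inositol phosphatase SHIP) and Zdhhc14 (0.39). Sesn2 lay nearest to Cep19 (0.65), Nudt7 (0.73) and Il6ra (0.8). For Cdkn1a they were Plek (0.12, pleckstrin), Tnfaip2 (0.3) and Arhgef3 (0.34). For Mdm2 they were Tnfsf4 (0.26, the OX40 ligand), Rab20 (0.28) and Pcdh7 (0.29). Ddit4 was nearest to Cd80 (0.43), Sdc1 (0.47) and Dnajb2 (0.51), and Gadd45a to Klf2 (0.38), Mmd (0.44) and Tsc22d1 (0.48). Ccng1 was nearest to Rprd1a (0.22), Cebpzos (0.23) and Zfp931 (0.27). Some of these neighbours were under the floor at 5 h: Mxd4 (5.81 in knockout, 1.84 in wild type), Nfic (7.81 and 6.15) and, in wild type only, Nudt7 (13.97). Their distances and places therefore depend on the floor.

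No member passed the test between the genotypes. Nor did Nfkbib, at −5.02 (limma adjusted p = 0.2998), or Xist, at 5.86 (limma adjusted p = 0.0755). A missing call is therefore no sign that the genotypes were alike. Limma called 0 of the 16 probe sets for knockout minus wild type over the 3 times, where 0.0305% of all probe sets were called, and 2, both of Cdkn1a, had an unadjusted p under 0.05. The differences ran from −0.36 to 0.8, with a median of 0.01 beside −0.02 over all probe sets, and adjusted p from 0.556 to 0.974. At 0 h knockout minus wild type lay between −0.51 and 0.65 over the 16, and at 1 h between −0.56 and 0.34. None was 2-fold apart at these times, where 2.15% and 3.1% of all probe sets were. At 5 h the range was −0.87 (Gadd45a) to 2.06 (Sesn2). The test was made for a difference shared by the 3 times, so one at a single time was not tested.

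**Figure D4:**
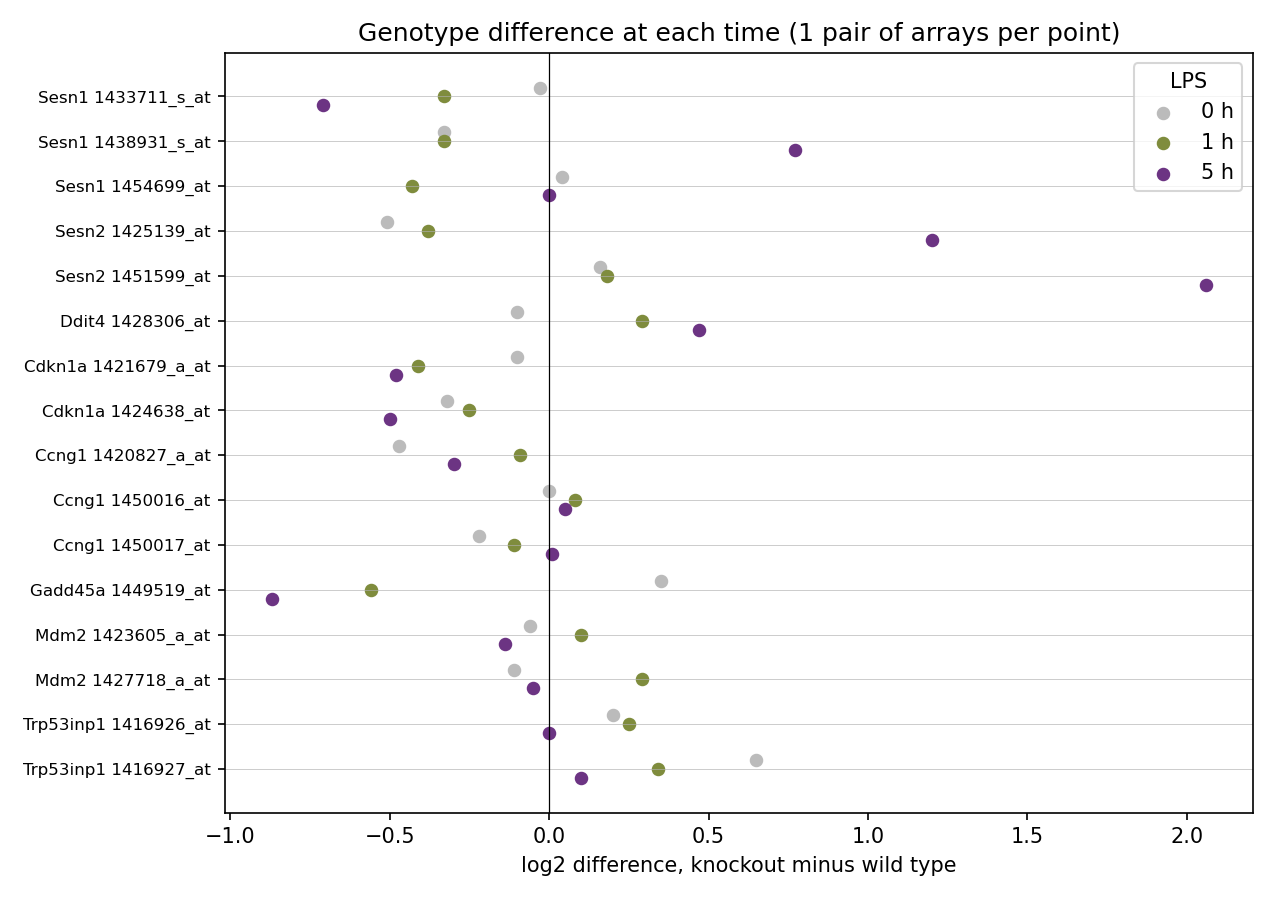
Log2 difference of the floored signal, IκBβ knockout minus wild type, for the 16 probe sets at 0 h (grey), 1 h (green) and 5 h (purple), each point from 1 pair of arrays. Both Sesn2 probe sets stand to the right at 5 h, at 1.2 and 2.06, and Cdkn1a lies left of 0 at all 3 times.

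Other p53 targets also went both ways. Of 38 further target genes listed, 27 were measured, and the 1 h fit called 5 higher and 0 lower and left 22 uncalled, beside 5.31% higher and 4.59% lower of all probe sets, with a median of 0.04. The 5 were Btg2, an antiproliferative gene (2.15, limma adjusted p = 0.00653), Pmaip1, the BH3-only gene Noxa (2.01, 0.0052), the polo-like kinase genes Plk3 (1.88, 0.0302) and Plk2 (1.29, 0.0224), and Apaf1 of the apoptosome (1.08, 0.0302). The lowest at 1 h were the repair genes Ercc5 (−0.96) and Xpc (−0.75), which did not pass. The 5 h fit called 7 higher and 16 lower and left 4 uncalled, with a median of −1.11 (9 higher and 12 lower after median centring). Fas, the death receptor gene, rose by 2.91, the autophagy gene Dram1 by 2.71 and Casp1, the inflammatory caspase gene, by 2.68. Zmat3, a p53-induced RNA-binding protein gene, fell by 4.67 (limma adjusted p = 0.000588), Xpc by 3.61 and Ercc5 by 3.14, the last 2 as bounds. Pmaip1 read 638, 2800 and 299 in knockout and 523, 1929 and 240 in wild type, up at 1 h and down by 1.11 at 5 h (limma adjusted p = 0.00227). At 5 h 20.8% of all probe sets were called higher and 49.7% lower.

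Of 17 listed p53 regulators 10 were measured. Among them 0 were called higher and 1 lower at 1 h, with 9 uncalled, beside 5.31% and 4.59% of all probe sets: Trp53bp1, the 53BP1 repair factor, fell by 0.67 (limma adjusted p = 0.0448). After median centring and after quantile normalization 0 of these genes were called lower at 1 h. The 5 h calls were 1 higher and 6 lower, with 3 uncalled (3 higher and 4 lower after median centring), where 20.8% of all probe sets were higher and 49.7% lower, so the lower calls were near the share of all. Usp7, the deubiquitinase of p53 and Mdm2, rose by 0.66, while the damage kinase genes Chek2 fell by 3.12 and Prkdc fell by 2.72, and Trp53bp1 fell by 2.45.

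Genes listed for the GATOR, TSC and mTORC1 pathway, on which sestrins and Ddit4 act, were called lower at 5 h at about the share of all probe sets. The list also holds Keap1, of the NRF2 pathway, which counts in the calls below. Of 32 listed 21 were measured, and at 1 h 0 were called higher, 4 lower and 17 not, beside 5.31% higher and 4.59% lower of all probe sets: Mlst8, an mTOR subunit gene (−1.48, limma adjusted p = 0.0381), Keap1, which encodes the NRF2 inhibitor (−0.83, 0.0372), the GATOR gene Mios (−0.65, 0.0448) and Eif4ebp1, a target of mTORC1 (−0.6, 0.0485). After median centring 1 rose and 1 fell. At 5 h 2 were called higher, 11 lower and 8 not, beside 20.8% higher and 49.7% lower of all probe sets. After median centring 9 were higher and 6 lower. Keap1 rose by 1 and the mTORC1 activator Rheb by 0.84, while Deptor, an mTOR inhibitor gene, fell by 4.56 as a bound. Prkag2 of the AMP-activated kinase fell by 3.61, and Ulk1, the autophagy kinase gene, fell by 3.05. Deptor read 705, 560 and 15.3 in knockout and 535, 472 and 37.4 in wild type, lowest at 5 h like Sesn1 and Sesn2.

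FoxO factors, which are known to drive Sesn1, Sesn3 and Ccng2, and their targets gave 16 measured of 21 genes. Calls at 1 h were 3 higher and 2 lower, with 11 uncalled, beside 5.31% and 4.59% of all probe sets. Txnip, a glucose-sensing thioredoxin inhibitor, fell by 3.21 (limma adjusted p = 0.00638) and Foxo3 by 0.76 (limma adjusted p = 0.0463). Bcl6 (1.72), Bcl2l11 (1.72) and Cited2 (1.46) rose. Calls at 5 h were 4 higher and 11 lower, with 1 uncalled, beside 20.8% and 49.7% of all probe sets (5 higher and 7 lower after median centring). Foxo3 read 708, 375 and 105 in knockout and 735, 484 and 110 in wild type, and fell by 2.75 at 5 h (limma adjusted p = 0.000447). Gabarapl1, an autophagy gene, fell by 3.34 and S1pr1 by 2.5, whereas Tnfsf10 (TRAIL) rose by 5.57 and Bcl6 by 1.79. The Tnfsf10 rise is a bound, as its wild-type 0 h signal was under the floor.

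ATF4 and the integrated stress response are known to act on Sesn2 and Ddit4. Of 23 genes listed 17 were measured, of which 7 were called higher and 0 lower at 1 h and 10 were not called, beside 5.31% higher and 4.59% lower of all probe sets, with a median of 0.32. Nupr1 rose by 3.65 (limma adjusted p = 0.0074), the cystine transporter gene Slc7a11 by 3.23 (0.0108) and Ppp1r15a (GADD34) by 2.92 (0.0103). Atf4 itself rose by 0.77 (limma adjusted p = 0.0482). At 5 h 9 were called higher, 5 lower and 3 not, beside 20.8% and 49.7% of all probe sets. Nupr1 rose by 4.75, Psat1 of serine synthesis by 3.82 and Slc7a11 by 3.43. The stress kinase gene Eif2ak3 (PERK) fell by 3.49, Eif2ak4 (GCN2) fell by 2.57 as a bound, and Herpud1 fell by 2. After median centring 11 were higher and 3 lower. None of the genes in these 5 lists was called between knockout and wild type, in a test that did not call Nfkbib either.

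**Figure D5:**
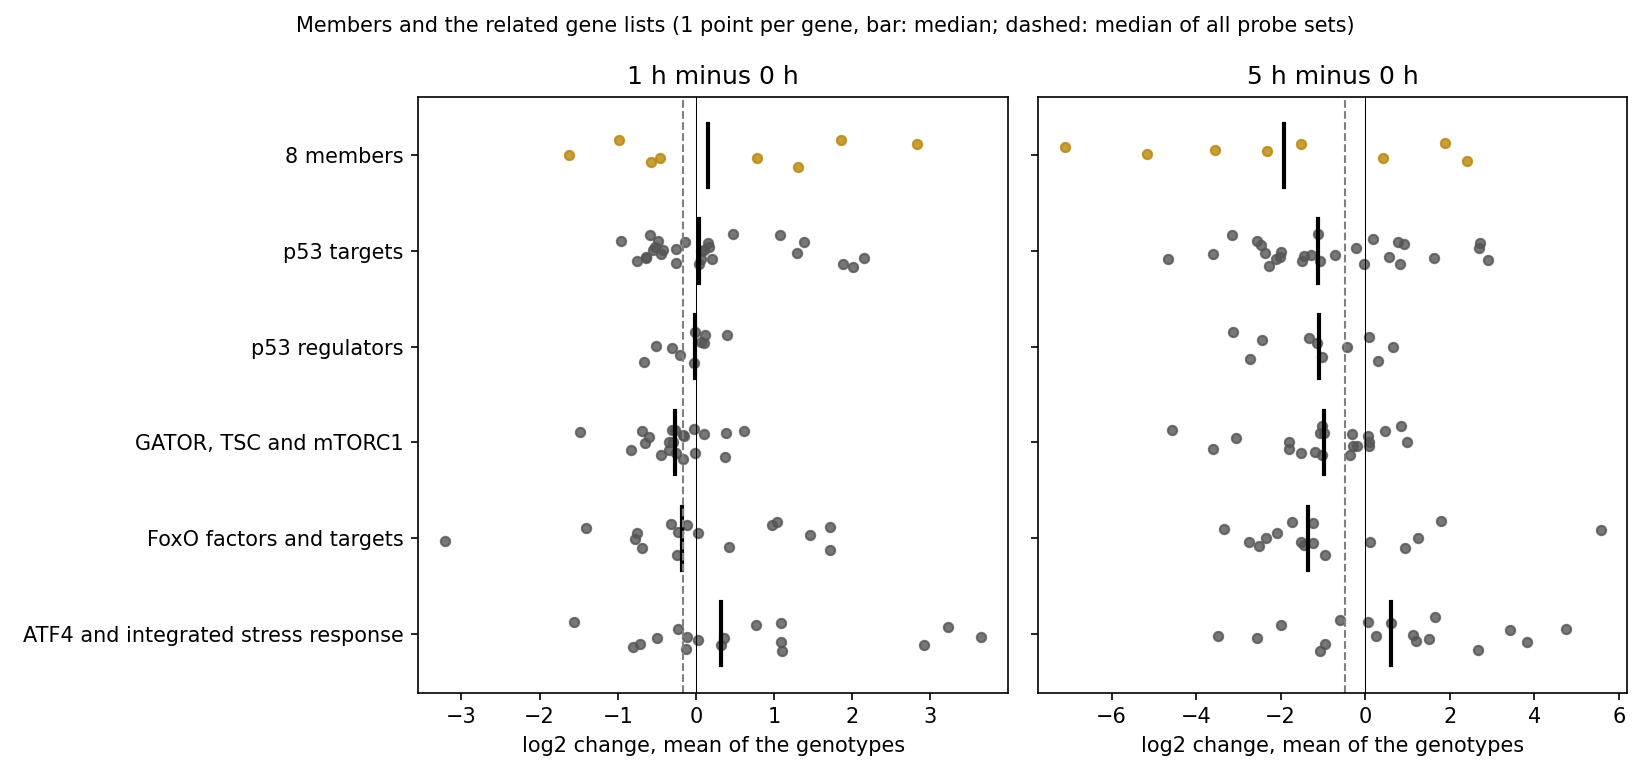
Log2 change at 1 h (left) and 5 h (right) against 0 h, as the mean of the genotypes, for the 8 genes described (gold, brightest probe set) and 5 lists of related genes (grey, 1 point per measured gene). Black bars are list medians and dashed lines the medians of 13135 probe sets, −0.17 at 1 h and −0.48 at 5 h; the ATF4 list has the highest list median at both times, 0.32 and 0.62.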

How the data were processed

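The values are intensity: MAS5 signals that the authors deposited for 22690 probe sets on 6 arrays, on a linear scale, with MAS5 named per the submitters' processing notes. The 3 arrays titled IkB were taken as IκBβ knockout from the series title. The sources used here give neither the version of MAS5 nor its scaling target. Trimmed array means were 500.2 to 500.3, so arrays share a scale. Probe sets were named from GEO's platform annotation with symbols updated through RefSeq gene IDs: 20393 have 1 gene symbol, 691 several and 1606 none. Signals were floored at the 25th percentile (18.2), put on the log2 scale, and kept if above the array median on at least 1 array, which left 13135 probe sets of 7510 genes. All 16 member probe sets were kept. limma 3.58.1 in R 4.3.3 fitted genotype and time as additive terms (2 residual degrees of freedom, prior 2.23), with Benjamini-Hochberg adjustment over all 13135. Related genes were represented by their brightest kept probe set. The fit was tested on simulated data. The labels do not say whether arrays come from separate animals or cultures, so p-values cover only the departure of these arrays from the additive fit. Alternatives were other floors and filters, quantile and median scaling, 1 value per gene, no genotype term, and leaving out each array.

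Named genes were the members, Nfkbib, Xist, relatives of the members, the 3 highest and 3 lowest genes of each list, the next 3 falls after Sesn1 and the 3 nearest courses. Plk2, Apaf1, Atf4, Mios, Eif4ebp1 and the markers named singly were named after their values were seen, as were some values of listed genes outside that rule. The members and lists were chosen with earlier results of these data known, and the motifs after the values were seen. Promoter windows are from RefSeq.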

Additional observations from a re-analysis of the deposited data

How the results depend on the processing

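No member's LPS change turned its sign at 1 h or 5 h under any of the alternatives run (224 values each). Between 1 h and 5 h 6 of 224 values did, of Cdkn1a and Mdm2, while 13 of 208 differences between the genotypes did, none of them called. Member probe sets called higher at 1 h numbered 5, against 1 with no filter and 3 with 1 value per gene (the brightest probe set or the mean of the probe sets), and 2 to 4 without 1 array. Those called lower numbered 2, against 0 with no filter, 1 with 1 value per gene, and 0 to 4 without 1 array. Calls at 1 h thus rest on few arrays. Over all probe sets, 697 were called higher at 1 h, against 147 with no filter, 407 with the brightest probe set per gene, 436 with the mean of the probe sets and 108 to 480 without 1 array. Called lower were 603, against 87 with no filter, 386 after median centring and 10 to 305 without 1 array. At 5 h 2726 were called higher, against 5423 after median centring, 1463 with the brightest probe set and 1494 with the mean, and 6532 lower, against 3186, 4055 and 4066 in that order. The share of calls that were higher was 53.6% at 1 h (63.7% after quantile normalization, 71% after median centring) and 29.4% at 5 h (44% and 63%). For 5 h minus 1 h 7975 were called, against 4805 with the brightest probe set, 4831 with the mean and 5044 to 7050 without 1 array. For knockout minus wild type 4 were called, against 1 with the floor at the 10th percentile, 0 with no filter, 11 after median centring, 1 with the brightest probe set, 1 with the mean and 0 without any 1 array. Fits with 1 value per gene hold fewer units, and the cause of the other shifts was not tested. Signals near the floor limit what the 5 h values of Sesn1, Sesn2 and Trp53inp1 can show. With the genotype term, each LPS change was taken within genotype. No further pairing was possible because the labels give no replicate numbers and each group has 1 array.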
